A study of Mus musculus with 31 samples.

Results

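The protein tyrosine phosphatases that act on cytokine receptor signalling were followed through 6 genes, Ptpn1, Ptpn2, Ptpn6, Ptpn11, Ptpn22 and Ptprc. The members were the ATAC-seq peaks, regions of open chromatin, whose deposited gene annotation names one of these genes. This gave 57 of the 104979 peaks in the count table, or 49 separate regions once overlapping peaks were merged. The members were chosen by gene name, and the genes were selected on a measured value, the rise in counts of a peak upstream of Ptpn1 after IL2 against PBS at 0.75 h. All values of IL2 against PBS at 0.75 h, and those of the same IL2 libraries against FP, are therefore a description and support nothing. FP against PBS at 0.75 h uses the PBS libraries of that choice, so its values are a description too.

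The study profiled Tregs, the regulatory T cells, which were sorted out of spleens of C57BL/6 mice that carry an RFP reporter of FoxP3. The mice had received 5 µg of mIL-2 (the IL2 groups), 20 µg of FP, the mIL-2/CD25 fusion protein, or, as the control, 100 µL of PBS. At 0.75 h and at 16 h each of the 3 treatments had 3 libraries. At 72 h the PBS and FP groups held 3 libraries each, and at 168 h PBS held 3 and FP held 4. The labels give no age for the animals, and nothing in the labels says whether the libraries of a group came from separate mice, so p-values measure the spread between these libraries. IL2 and FP differ in dose as well as in molecule, so a comparison of them is one of regimens. Each time has its own sample dates, so time and date cannot be told apart. The titles of all 168 h libraries, and of no others, mention multiple runs. A difference between 168 h and another time therefore cannot be told apart from the runs either.

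Library totals ranged from 7.39 M to 59.6 M counts, and 1 peak took 24% of all counts. At 168 h 2 libraries, PBS 1 and FP 2, stood apart, with mean correlations to the others of 0.736 and 0.778 where the remaining libraries had 0.812 to 0.885. All 8 Treg and CD4 T cell marker genes had peaks, and the summed accessibility at Foxp3 was 18 to 45.7 CPM (counts scaled to the size of the library) in every library. Of 8 B cell marker genes 5 had peaks, whose 16 peaks summed to 29.6 to 61.2 CPM over the libraries, with 12.7 to 36.1 CPM at Ebf1, while Cd79b and Ms4a1 had no peak. All 5 CD8 T cell marker genes had peaks, whose 31 peaks summed to 92.5 to 196 CPM over the libraries, with 40.5 to 123 CPM at Cd8b1. The part of the B cell and CD8 T cell markers in the results was not tested. In these bulk samples, fewer cells of a type and less open chromatin per cell cannot be told apart.

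Protein tyrosine phosphatases remove phosphate from the tyrosines that receptor-bound kinases add, and so limit how long a cytokine signal lasts. IL-2 signals in Tregs through JAK kinases and the transcription factor STAT5, which binds a short palindromic DNA site. Ptpn1 encodes PTP1B and Ptpn2 encodes TC-PTP, a related pair that act on JAK and STAT proteins. Ptpn6 encodes SHP-1, an inhibitor of many haematopoietic receptors, and Ptpn11 encodes SHP-2, which mostly promotes RAS and ERK signalling. Ptpn22 encodes LYP, also called PEP, which restrains T cell receptor kinases, and Ptprc encodes CD45, the abundant receptor phosphatase of leukocytes.

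The sequences of 3 Ptpn1 peaks are shown because 2 of them carry the largest changes of the gene and the third holds a STAT-type sequence without a called change. Each is the central 300 bp of a peak on the plus strand of GRCm38. Capitals mark matches to TTCNNNGAA, the letters bound by STAT dimers, which read the same on both strands. The first lies upstream of Ptpn1 (chr2:167910163-167910462), the second over an internal exon (chr2:167951819-167952118) and the third in an intron (chr2:167959920-167960219).
Upstream Ptpn1 peak: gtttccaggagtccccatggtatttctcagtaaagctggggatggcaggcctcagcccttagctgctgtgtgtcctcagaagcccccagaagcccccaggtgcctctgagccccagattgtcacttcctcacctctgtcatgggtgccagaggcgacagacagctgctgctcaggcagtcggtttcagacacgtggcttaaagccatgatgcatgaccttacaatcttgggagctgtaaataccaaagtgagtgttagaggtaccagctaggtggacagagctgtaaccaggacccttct
Internal exon Ptpn1 peak: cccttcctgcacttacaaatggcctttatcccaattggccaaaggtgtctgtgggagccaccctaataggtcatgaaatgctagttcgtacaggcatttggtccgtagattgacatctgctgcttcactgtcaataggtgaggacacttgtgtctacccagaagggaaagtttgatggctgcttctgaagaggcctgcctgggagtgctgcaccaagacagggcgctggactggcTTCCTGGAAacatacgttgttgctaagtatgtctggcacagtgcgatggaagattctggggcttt
Intron Ptpn1 peak: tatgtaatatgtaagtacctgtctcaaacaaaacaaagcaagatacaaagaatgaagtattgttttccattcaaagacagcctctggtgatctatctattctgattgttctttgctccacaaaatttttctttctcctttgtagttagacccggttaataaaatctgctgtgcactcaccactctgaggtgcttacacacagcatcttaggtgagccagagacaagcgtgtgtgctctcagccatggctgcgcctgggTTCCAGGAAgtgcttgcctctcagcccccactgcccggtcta
The upstream peak held no match to these letters in this window or elsewhere in its 761 bp, which says only that the letters are not there. In the internal exon peak the match was TTCCTGGAA, 89 bp from the peak's centre, and in the intron peak it was TTCCAGGAA, 112 bp from the centre. Such matches were found in 10.6% of the 300 bp windows around all 104979 peaks and in 11 of the 57 windows around phosphatase peaks. Because 9 intron peaks of Ptpn1 overlap, those 11 windows lay in 5 of the 49 regions, of which 2 were at Ptpn1, 2 at Ptpn2 and 1 downstream of Ptpn11. One of the Ptpn2 regions is the intron peak on which its result turns, with a match 49 bp from its centre, and at the other, a small promoter-labelled peak, the match is in the window but outside the peak. The windows cover only the centre of longer peaks, and the Ptpn2 promoter peak is among those with matches in the peak but not in the window. Of other letters searched on both strands, the AP-1 letters TGANTCA were in 8 of 57 member windows against 10.1% of all, the RUNX letters TGTGGTT in 7 against 9.62%, and the ETS letters CCGGAAG in 1 against 5.15%. Among the RefSeq promoters of GRCm38 for 5 of the genes, 250 bases before to 50 after each start, 1 of the 2 Ptpn22 windows held TTCNNNGAA, as did 8.3% of 32851 promoters.

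Ptpn1 lies on the plus strand of chromosome 2 (chr2:167932057-167979385) and had 18 peaks in 10 regions. Its upstream peak (chr2:167909933-167910693) is intergenic, with its centre 21744 bp before the nearest annotated start of Ptpn1. At 0.75 h the upstream peak had 1.07, 0.958 and 0.348 CPM with PBS, 8.37, 9.07 and 5.93 CPM with IL2, and 3.42, 5.31 and 3.3 CPM with FP. Every IL2 and every FP library was above every PBS library, and every IL2 library was above every FP library. The log2 fold change was 3.29 ± 0.44 (SE) for IL2 and 2.34 ± 0.43 for FP against the same 3 PBS libraries.

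At 16 h the upstream Ptpn1 peak was higher with FP than with IL2. It had 2.77, 1.4 and 2.03 CPM with PBS, 0.463, 2.11 and 1.51 CPM with IL2, and 6.3, 8.88 and 5.73 CPM with FP. All FP libraries exceeded all others, and the IL2 and PBS libraries overlapped. FP exceeded IL2 by 2.34 ± 0.46 on the log2 scale, which passed edgeR's quasi-likelihood test with Benjamini-Hochberg adjustment over all peaks (adjusted p = 0.0313). The same test of FP against PBS gave 1.74 ± 0.45 (adjusted p = 0.214 by edgeR), and IL2 against PBS gave -0.61 ± 0.46 (adjusted p = 1 by edgeR). The FP against IL2 call was held with 4 of 9 libraries left out singly and lost without any one of FP c1, c2 or c3 or IL2 c1 or c3 (adjusted p by edgeR 0.0219 to 0.255, log2 differences 1.95 to 2.78), with library totals as the scaling (adjusted p = 0.0925) and with the library total as a covariate (adjusted p = 0.0568). Of all peaks, 0.141% were called higher in the main fit, 0.0615% with library totals and 0.0308% with the covariate.

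At 72 h the upstream Ptpn1 peak had 1.65, 2.14 and 2.68 CPM with PBS and 3.92, 3.88 and 5.11 CPM with FP, and the groups did not overlap. The log2 difference of 0.96 ± 0.29 did not pass (adjusted p = 0.93 by edgeR). At 168 h the order was turned, with 1.68, 3.99 and 1.7 CPM in PBS and 1.45, 1.12, 0.9 and 1.09 CPM in FP. The log2 difference was -1.13 ± 0.47 (adjusted p = 0.899 by edgeR), and it was -0.57 without PBS library 2 and -1.31 without the 2 libraries that stood apart, an alternative chosen after seeing the data. The FP effect at 168 h was below that at 16 h by a log2 difference of -2.85 ± 0.60, which missed the threshold in edgeR (adjusted p = 0.0738) and passed in DESeq2 (adjusted p = 0.00131).

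Ordered by group mean, the upstream Ptpn1 peak was highest with IL2 at 0.75 h (7.79 ± 1.65 CPM, SD, n = 3) and FP at 16 h (6.97 ± 1.68, n = 3), which overlapped. FP at 72 h (4.31 ± 0.701, n = 3) and FP at 0.75 h (4.01 ± 1.13, n = 3) came next and overlapped each other, and FP at 72 h did not overlap FP at 16 h. The PBS groups of 168, 72 and 16 h followed at 2.46, 2.15 and 2.07 CPM, then IL2 at 16 h (1.36), FP at 168 h (1.14) and PBS at 0.75 h (0.793). Each of these lower groups overlapped its neighbour.

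**Figure D1:**
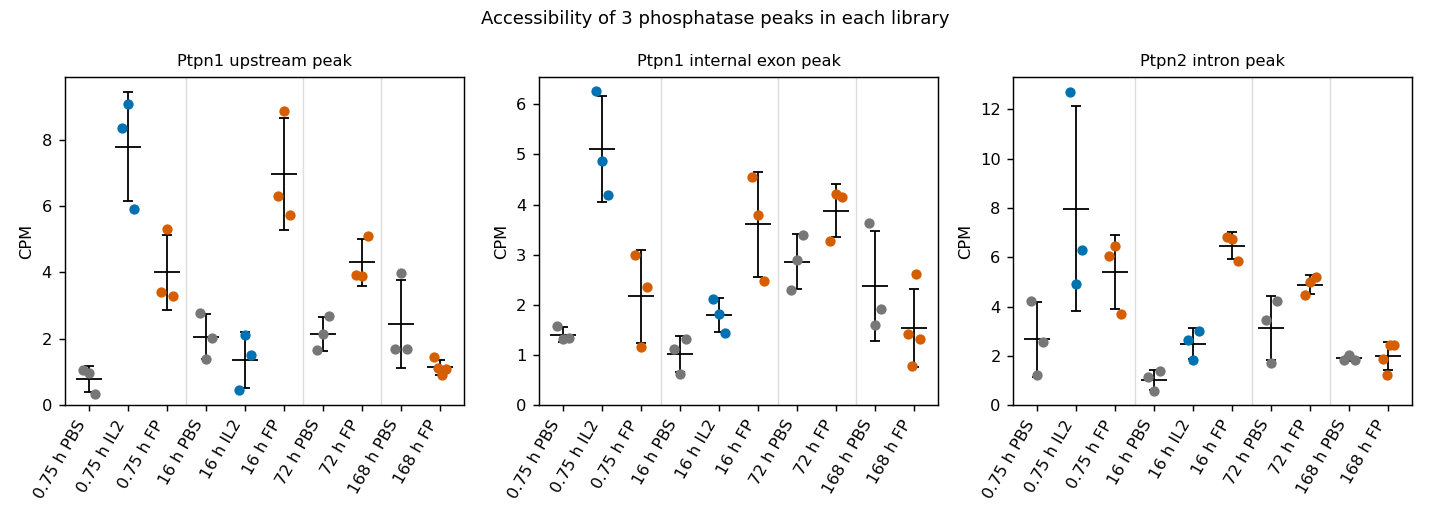
CPM of the upstream Ptpn1 peak, the internal exon Ptpn1 peak and the Ptpn2 intron peak (vertical axes, linear from 0) in each library (points), by time and treatment; horizontal bars are group means and whiskers 1 SD, with n = 3 a group and n = 4 for FP at 168 h. In each panel all IL2 libraries lie above the PBS libraries at 0.75 h, and all FP libraries above those at 16 h. At 16 h the upstream Ptpn1 peak reads 5.73 to 8.88 CPM with FP against 1.4 to 2.77 CPM with PBS. The internal exon peak has its highest FP mean at 72 h (3.88 CPM, against 3.61 at 16 h).

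The internal exon peak of Ptpn1 (chr2:167951733-167952206), 19.9 kb into the gene, overlaps an exon (chr2:167951956-167952079) that GENCODE M21 gives to 2 non-coding processed transcripts. At 0.75 h it had 1.57, 1.31 and 1.34 CPM with PBS, 6.26, 4.86 and 4.19 CPM with IL2 and 3, 1.16 and 2.35 CPM with FP. The IL2 libraries stood above both other groups, and FP overlapped PBS. The log2 fold change against PBS was 1.86 ± 0.43 for IL2 and 0.63 ± 0.42 for FP. At 16 h the peak had 1.12, 0.629 and 1.32 CPM with PBS, 2.12, 1.81 and 1.44 CPM with IL2 and 4.54, 3.8 and 2.48 CPM with FP. The 3 groups did not overlap, in the order PBS, IL2, FP. FP against PBS was 1.80 ± 0.47 (adjusted p = 0.22 by edgeR, 0.0288 by DESeq2), IL2 against PBS was 0.78 ± 0.47 (adjusted p = 1 by edgeR), and FP against IL2 was 1.01 ± 0.45 (adjusted p = 0.916 by edgeR). With FP the peak had 3.27 to 4.22 CPM at 72 h against 2.29 to 3.39 CPM with PBS, and 0.778 to 2.62 CPM at 168 h against 1.6 to 3.63 CPM, and both pairs of groups overlapped.

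None of the other Ptpn1 peaks passed in any comparison by edgeR. The promoter peak over the gene's start (chr2:167931977-167932938) averaged 13.6 CPM, and its log2 fold changes in the 6 comparisons with PBS lay between -0.05 and 0.27. An intergenic peak 6.9 kb before the gene start, at 14.1 CPM, lay between -0.07 and 0.32, and an intron peak 10.9 kb into the gene, at 13.7 CPM, between 0.06 and 0.42. The 9 overlapping intron peaks (chr2:167959303-167960459), which share reads, had means of 0.779 to 3.32 CPM, and the region holds 2 TTCNNNGAA matches.

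**Figure D2:**
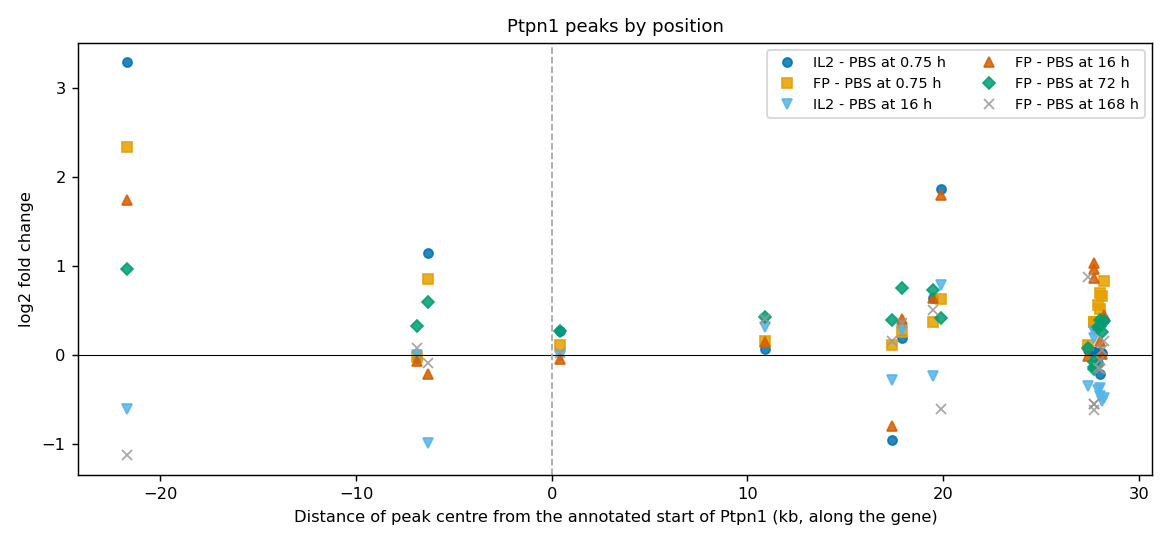
Log2 fold change against PBS of the same time (vertical axis) for each Ptpn1 peak, by distance of its centre from the annotated start of Ptpn1 in kb along the gene (horizontal axis; the dashed line is the start); colours and shapes are the 6 comparisons. The upstream peak at -21.7 kb and the internal exon peak at 19.9 kb have the highest values, and the promoter peak lies near 0.

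Ptpn2 lies on the minus strand of chromosome 18 (chr18:67665511-67724595) and had 4 peaks. Its intron peak (chr18:67699442-67700004), 24.9 kb into the gene, rose with FP at 16 h. It had 1.12, 0.559 and 1.37 CPM with PBS, 2.66, 1.81 and 3.02 CPM with IL2, and 6.82, 6.73 and 5.83 CPM with FP. The groups were fully separated in that order. FP against PBS was 2.64 ± 0.42 on the log2 scale, or 6.23-fold, and passed (adjusted p = 0.00512 by edgeR); the call was held in all 16 alternatives, with adjusted p up to 0.0483. IL2 against PBS was 1.27 ± 0.42 (adjusted p = 1 by edgeR), and FP against IL2 was 1.37 ± 0.39 (adjusted p = 0.324 by edgeR).

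At 0.75 h the Ptpn2 intron peak had 4.24, 1.21 and 2.54 CPM with PBS, 12.7, 4.91 and 6.29 CPM with IL2 and 6.06, 6.47 and 3.7 CPM with FP. The IL2 libraries were all above the PBS libraries, and FP overlapped both. The log2 fold change was 1.58 ± 0.44 for IL2 and 1.04 ± 0.44 for FP (adjusted p = 1 for FP by edgeR). At 72 h it had 3.46, 1.69 and 4.22 CPM with PBS and 4.47, 4.99 and 5.2 CPM with FP, which did not overlap (0.61 ± 0.33, adjusted p = 0.93 by edgeR). At 168 h the groups overlapped, at 1.82, 2.03 and 1.83 CPM with PBS and 1.89, 1.21, 2.44 and 2.42 CPM with FP (0.07 ± 0.40, adjusted p = 0.99 by edgeR). The FP effect was lower than at 16 h by -2.01 ± 0.59 at 72 h (adjusted p = 1 by edgeR) and by -2.54 ± 0.59 at 168 h (adjusted p = 0.147 by edgeR, 0.00839 by DESeq2). These differences involve PBS as well as FP. The PBS mean of 1.02 CPM at 16 h was the lowest of all groups, against 2.66, 3.12 and 1.89 CPM at 0.75, 72 and 168 h. The FP means were 6.46 CPM at 16 h, 4.88 at 72 h and 1.99 at 168 h.

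The Ptpn2 promoter peak (chr18:67724006-67725295) had the highest level of all members, at 58.7 CPM on average or 45.5 CPM per kb of peak. Its libraries ranged from 34.9 to 92.4 CPM, and its log2 fold changes against PBS lay between -0.27 and 0.32. A small promoter-labelled peak 849 bp before the gene start had 1.19 to 4.7 CPM, and a peak over the last exon 0 to 3.88 CPM.

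Ptpn6 (chr6:124720707-124738714, minus strand) had 4 peaks, and none passed in any of the 10 comparisons by edgeR or DESeq2, with 1 at an unadjusted p under 0.05, for FP at 72 h. Its leading promoter-labelled peak (chr6:124732343-124733504) lies over an internal start site and averaged 6.95 CPM, 5.98 CPM per kb. It had 4.39 ± 0.486 CPM with PBS, 6 ± 2.46 with IL2 and 6.18 ± 4.46 with FP at 0.75 h (SD, n = 3 each), and the 3 groups overlapped. At 16 h the means were 8.11, 8.75 and 8.51 CPM. With FP the mean was 8.97 ± 2.22 CPM (n = 3) at 72 h against 5.92 ± 1.13 with PBS (n = 3), and the groups overlapped. An intron peak 15 kb into the gene averaged 3.78 CPM, with its highest log2 fold change, 0.71, for FP at 168 h. All 4 Ptpn6 peaks had positive log2 differences for FP at 72 h, from 0.16 to 0.57, as had 43 of the 54 tested members. The median over all peaks was -0.03.

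Ptpn11 (chr5:121130533-121191397, minus strand) had 6 peaks, and none passed by edgeR or DESeq2 in any comparison or had an unadjusted p under 0.05 in edgeR. Its promoter peak (chr5:121190768-121191771) averaged 5.36 CPM, or 5.33 CPM per kb. At 72 h it had 1.91 to 5.69 CPM with PBS and 5.88 to 8.91 CPM with FP, which did not overlap (0.67 ± 0.37, adjusted p = 0.93 by edgeR). At 0.75 h IL2 gave 2.14 to 4.88 CPM against 3.46 to 4.99 CPM with PBS. The most accessible Ptpn11 peak, at 13.8 CPM, was not the promoter but an intergenic peak (chr5:121106934-121107515) beyond the gene's 3' end, one of those with a TTCNNNGAA match. Its log2 fold changes against PBS lay between -0.15 and 0.18, and an intergenic neighbour at 4.12 CPM lay between -0.56 and 0.25.

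Ptpn22 (chr3:103859795-103912247, plus strand) had 7 peaks, and none passed in any comparison by edgeR or DESeq2, with 3 at an unadjusted p under 0.05 for IL2 against PBS at 16 h and 1 for FP against IL2 at 0.75 h. Its promoter peak (chr3:103859841-103860574) was the second highest of the 6 leading promoter peaks, at 21.2 CPM or 28.8 CPM per kb. It had 14.6 to 23.8 CPM with PBS, 21.9 to 31.2 CPM with IL2 and 15.8 to 25.2 CPM with FP at 16 h, and IL2 overlapped PBS. The upstream Ptpn22 peak (chr3:103857284-103857696), 2.31 kb before the gene start, had 2.8, 3.64 and 4.01 CPM with PBS at 16 h. It had 4.55 to 7.99 CPM with IL2 and 4.21 to 7.32 CPM with FP, and both groups lay above PBS. Neither difference passed (0.78 ± 0.35, adjusted p = 1 for IL2, and 0.65 ± 0.35, adjusted p = 0.96 for FP, by edgeR). A promoter-labelled peak over an internal start, 26.3 kb into the gene, went the other way with IL2 at 16 h, at 1.87 to 2.2 CPM against 2.49 to 3.14 CPM with PBS (-0.45 ± 0.46, adjusted p = 1 by edgeR).

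Ptprc (chr1:138062861-138175708, minus strand) had 18 peaks, as many as Ptpn1, in 18 regions. None passed in any comparison in the main edgeR fit, with at most 2 at an unadjusted p under 0.05 in a comparison, and DESeq2 called 1 of them in 1 comparison. Its promoter peak (chr1:138174976-138175920) averaged 7.7 CPM, or 8.15 CPM per kb, with log2 fold changes against PBS between -0.03 and 0.33. The most accessible Ptprc peak was in an intron (chr1:138136206-138136822), at 14.1 CPM. It had 10.6, 12.1 and 13.9 CPM with PBS and 13.9, 17.3 and 20.2 CPM with IL2 at 16 h (0.49 ± 0.24, adjusted p = 1 by edgeR). The other named Ptprc peaks, 2 in introns and 1 labelled exon, averaged 2.21, 2.6 and 3.46 CPM. An intergenic peak beyond the 3' end of Ptprc (chr1:138039097-138039645) is described after its values were seen. At 0.75 h it had 4.57, 1.97 and 4.67 CPM with PBS, 0.173, 0.866 and 1.01 CPM with IL2 and 2.7, 2.64 and 2.12 CPM with FP. Its IL2 libraries all lay below its PBS libraries at 0.75 h, as for 1 of the 55 tested members and 5.14% of all peaks. The log2 fold change of IL2 against PBS was -2.43 ± 0.56. It is the peak that DESeq2 called there, with 0.0906% of all peaks called lower. By edgeR it was also called there with the replicate block (0.0418% of all peaks lower) and with all 31 libraries in 1 fit (0.0153%). The same held without PBS library 2, a fit for which no share of all peaks is given.

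**Figure D3:**
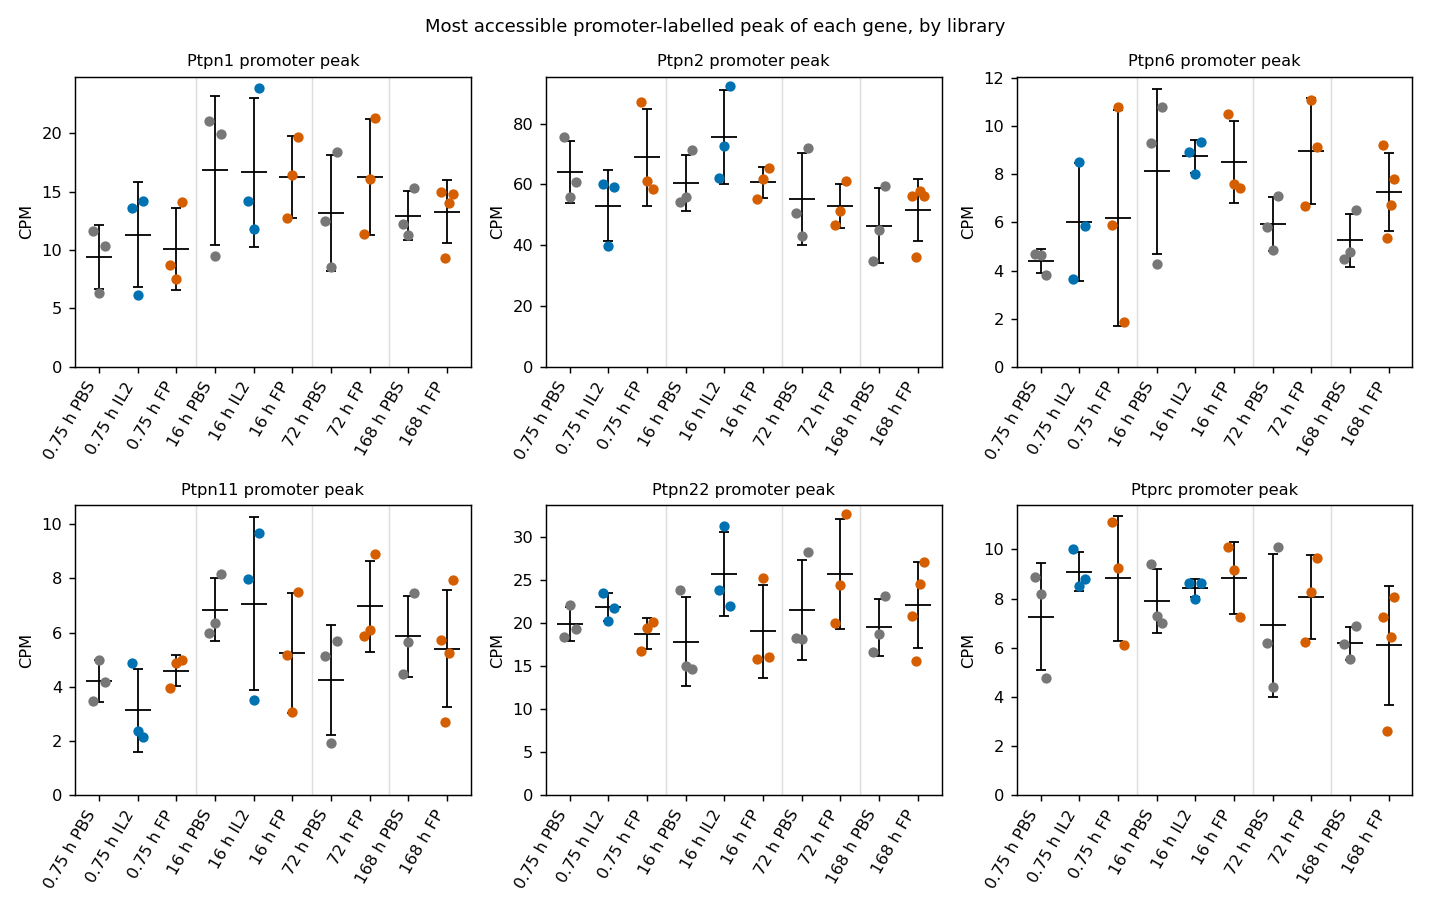
CPM of the most accessible promoter-labelled peak of each gene (vertical axes, linear from 0, with a separate scale for each gene) in each library (points), by time and treatment; horizontal bars are group means and whiskers 1 SD, with n = 3 a group and n = 4 for FP at 168 h. Treated and PBS libraries of the same time overlap except for Ptpn11 at 72 h, where FP libraries start at 5.88 CPM and PBS libraries end at 5.69 CPM.

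Across all members, IL2 at 0.75 h gave 1 called rise among 55 tested peaks, the upstream Ptpn1 peak, where 0.488% of all tested peaks were called higher and 0.00896% lower. IL2 and PBS libraries did not overlap for 4 members that were higher and 1 that was lower, against 6.2% and 5.14% of all peaks. The members' median log2 fold change was 0.06 and that of all peaks -0.02. A fit with the replicate number as a block is given because same-numbered PBS and IL2 libraries deviated together here, though weakly for 2 of the 3 numbers. In that fit 3 members rose (both Ptpn1 peaks and the Ptpn2 intron peak) and the intergenic Ptprc peak fell, 4 calls in place of 1. That fit called 0.937% of all peaks higher and 0.0418% lower, so calls over all peaks rose in number too. At an unadjusted p under 0.05 there were 5 members of 55 (5.74% of all peaks). One marker peak each of the Treg and erythroid lists was called higher in this comparison, an Ikzf2 intron peak (1.92 ± 0.38) and a peak at the globin gene Hbb-bt (2.18 ± 0.29). They were 1 of 92 and 1 of 32 tested peaks, and the lists' medians were 0.08 and -0.38. The erythroid list summed to 85 to 98.4 CPM with IL2 and 87.6 to 128 with PBS. The CD8 T cell list, with 0 of 31 called, had a median of -0.46. It summed to 115 to 140 CPM with IL2 and 131 to 196 with PBS. The part of these markers was not tested.

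For FP at 0.75 h, which shares its PBS libraries with the IL2 comparison, 0 of 55 members passed in edgeR, where 0.00199% of all peaks were called higher and 0% lower. At an unadjusted p under 0.05 there were 2 members (3.14% of all peaks), and DESeq2 called 1, the upstream Ptpn1 peak, where it called 0.203% of all peaks higher. The PBS libraries had a part in the choice of members, so that call is a description. Groups did not overlap for 3 members, all higher (4.62% of all peaks). Between FP and IL2 at 0.75 h, 0 of 55 members passed in edgeR and 0 in DESeq2, with 6 at an unadjusted p under 0.05 in edgeR (3.66% of all peaks). There edgeR called 0% of all peaks in either direction, and DESeq2 called 0.00381% higher and 0.000953% lower. FP was below IL2 without overlap for 4 members and above for 5 (4.86% and 4.47% of all peaks). The 4 lower ones included the upstream and internal exon Ptpn1 peaks, with log2 differences of -0.95 ± 0.39 and -1.23 ± 0.41, which use the IL2 libraries that chose the members and so are a description.

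At 16 h FP gave 1 called rise among 56 tested members, the Ptpn2 intron peak, where 0.114% of all peaks were called higher and 0% lower. DESeq2 called 3, adding the upstream and internal exon peaks of Ptpn1, where it called 0.413% of all peaks higher, and 3 had an unadjusted p under 0.05 in edgeR (5.31% of all peaks). Groups did not overlap for 4 higher members and 1 lower (6.89% and 5.46% of all peaks), and the medians were 0.14 for members and -0.02 for all peaks. FP against IL2 gave 1 call of 56, the upstream Ptpn1 peak, where 0.141% of all peaks were called higher and 0% lower, with 4 at an unadjusted p under 0.05 (5.05% of all peaks). The upstream and internal exon Ptpn1 peaks and the Ptpn2 intron peak were higher with FP than with IL2 without overlap, and 1 Ptprc intron peak was lower (5.65% and 4.86% of all peaks). IL2 against PBS gave 0 of 56 in edgeR and 0 in DESeq2, with 4 at an unadjusted p under 0.05 in edgeR (3.63% of all peaks). There edgeR called 0% of all peaks in either direction, and DESeq2 called 0% higher and 0.000953% lower. Groups did not overlap for 5 higher members and 1 lower (4.53% and 4.47% of all peaks).

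Markers of other cell types were read beside the 16 h results. The summed CPM of 28 peaks at 6 of 10 myeloid marker genes was 157 to 194 with FP against 106 to 150 with PBS and 103 to 205 with IL2, with no peak at Csf1r, Adgre1, Csf3r or Mpo and 0 of 28 peaks called. Most of this sum lay at Cebpa (38.9 to 122 CPM over all libraries) and Fcgr3 (25.3 to 53.1), while Lyz2 had at most 1.65 CPM. The NK list, 18 peaks at 4 of 6 genes, summed to 115 to 144 CPM with FP, 80.2 to 117 with PBS and 87.3 to 118 with IL2, with no peak at Ncr1 or Klra4 and 0 of 18 called. Nearly all of this sum lay at the 13 peaks of Klrb1c (51.4 to 141 CPM over all libraries). Klre1, Klri2 and Klra8 had at most 8.13, 8.1 and 5.01 CPM. Of the erythroid list, 1 of 32 tested peaks was called for FP against IL2, the same Hbb-bt peak (2.00 ± 0.34, adjusted p = 0.00918 by edgeR), while Hbb-bs, Hba-a2 and Slc4a1 had no peak and the 34 peaks summed to 98.5 to 120 CPM with FP and 78.7 to 114 CPM with IL2. The part of these markers in the phosphatase results was not tested.

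**Figure D4:**
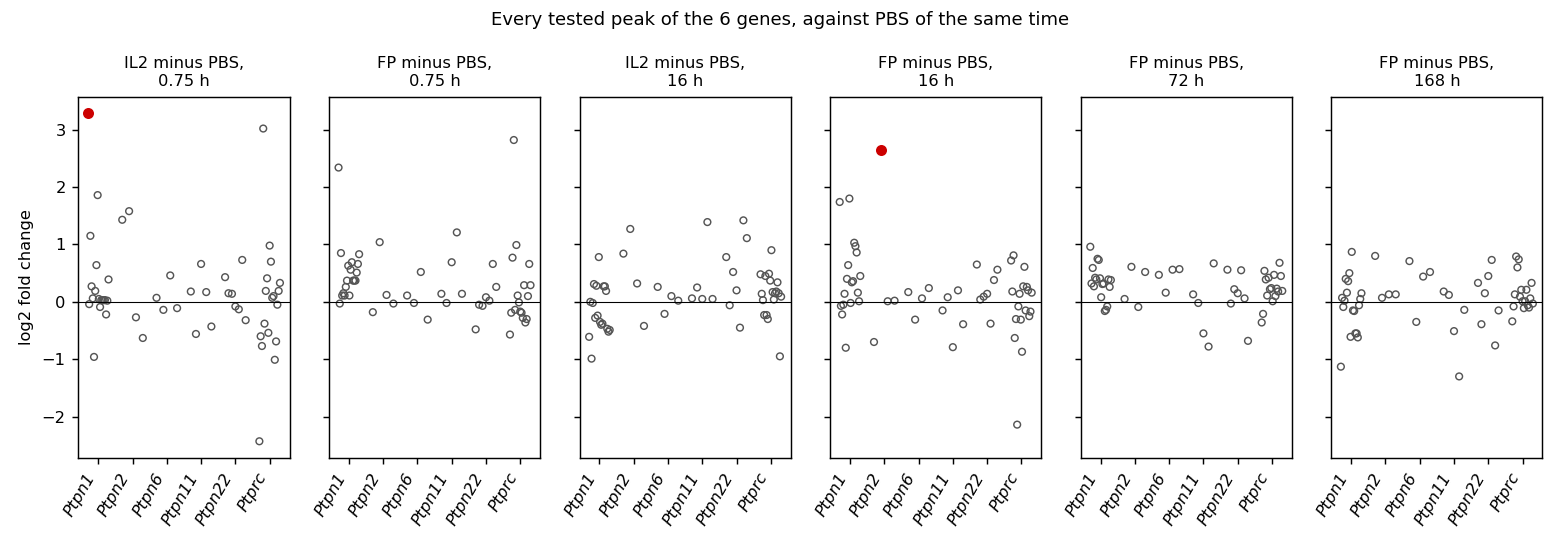
Log2 fold change against PBS of the same time (vertical axis) for every tested peak of the 6 genes (horizontal axis), with 1 panel per comparison; filled red points passed edgeR's adjusted threshold and open points did not. The passing points are the upstream Ptpn1 peak for IL2 at 0.75 h (3.29) and the Ptpn2 intron peak for FP at 16 h (2.64).

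At 72 h 0 of 54 members passed in edgeR and 0 in DESeq2, and 2 members had an unadjusted p under 0.05 in edgeR (5.21% of all peaks). Of all peaks, edgeR called 0% in either direction, and DESeq2 called 0.0667% higher and 0.0638% lower. FP exceeded PBS without overlap for 6 members and lay below it for 1 (6.14% and 5.05% of all peaks). The median log2 difference was 0.26 for members and -0.03 for all peaks, with the overlapping Ptpn1 intron peaks, which share reads, counted singly. At 168 h 0 of 55 passed in edgeR and 0 in DESeq2, with 1 at an unadjusted p under 0.05 in edgeR (4.54% of all peaks). Again edgeR called 0% of all peaks in either direction, and DESeq2 called 0.0429% higher and 0.000954% lower. Groups did not overlap for 0 higher and 2 lower members (3.6% and 2.64% of all peaks), the upstream Ptpn1 peak and a promoter-labelled peak of Ptpn22. Between the FP effects at 72 and 16 h 0 of 56 members differed in edgeR and 0 in DESeq2, with 2 at an unadjusted p under 0.05 (2.98% of all peaks). Of all peaks 0% were called higher and 0.000957% lower by edgeR, and 0% and 0.000953% by DESeq2. Between 168 and 16 h 0 of 56 differed in edgeR, with 3 at an unadjusted p under 0.05 (4.9% of all peaks), and of all peaks 0.000957% were called higher and 0.0201% lower. DESeq2 called the FP effects at the upstream and internal exon Ptpn1 peaks and the Ptpn2 intron peak lower at 168 h, where it called 0.167% of all peaks lower.

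The neighbouring genes of the pathway were read from lists of the same table. In the 6 comparisons with PBS, edgeR called 0 peaks among the 112 of the IL-2 receptor, JAK and STAT genes, the 91 of SOCS and other feedback inhibitors, the 296 of other classical tyrosine phosphatases and the 243 of T cell receptor kinases and adaptors. Not every listed peak was tested each time. Of all tested peaks 0.488% were called higher and 0.00896% lower for IL2 at 0.75 h, and 0.114% higher for FP at 16 h. With shares this low, 0 calls in lists of this size do not set them apart from all peaks. FP against IL2 at 16 h gave 1 call of 112 tested peaks in the receptor, JAK and STAT list. It gave 2 of 242 in the T cell receptor list, and all of these were higher with FP. The SOCS list (91 tested) and the other phosphatases (277 tested) had 0. Of all peaks 0.141% were called higher and 0% lower. The calls included an intergenic peak of Il2rb, the IL-2 receptor beta chain (2.00 ± 0.34, adjusted p = 0.01 by edgeR). Another was an intron peak of Gab2, which encodes a docking adaptor of SHP-2 (3.17 ± 0.49, adjusted p = 0.00459 by edgeR).

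The likeness of other peaks to the upstream Ptpn1 peak was measured over 31 libraries as the Pearson correlation of log2 CPM less the mean of the same-time PBS libraries. Among 53708 peaks, taking 1 per gene outside the members, the closest included an intron peak of Leprotl1 (0.95), an intron peak of Dthd1 (0.93) and intergenic peaks at Gm45454 (0.91) and 8430436N08Rik (0.90). These values share libraries, depth and the PBS means, and describe a pattern only. The Leprotl1 peak had log2 fold changes of 3.10 for IL2 and 2.18 for FP at 0.75 h, 1.76 for FP at 16 h and -0.32 for IL2 at 16 h. Among the members the internal exon peak of Ptpn1 had 0.63 and the Ptpn2 intron peak 0.56, while the Ptpn1 promoter had 0.14.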

How the data were processed

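Counts per peak were used as the authors deposited them, unnormalized, for 104979 peaks in 31 libraries. Alignment was with bwa to GRCm38 (mm10) and peak calling with MACS2 2.1.2, per the submitters' processing notes. How reads were counted and duplicates handled is not given in the sources used here; no header records it. The first count column, filed under another unit because commas in 9561 gene names shift it, also holds deposited counts, so lines were parsed from their last field backwards. No per-sample column was left unmapped (0). Groups follow the sample titles, since the labels' protocol gives 0.75 h for every sample. At 16 h the columns were matched to groups only, so libraries are named c1 to c3. The labels mention technical replicates, which are not separate in the table.

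Each time point was fitted with all its groups in edgeR 4.0.16 (R 4.3.3, limma 3.58.1), with TMM scaling, filterByExpr (minimum count 10, minimum total 15), the quasi-likelihood F test and Benjamini-Hochberg adjustment over all tested peaks, threshold 0.05. Differences between times came from 1 fit of all 31 libraries. SE is the log2 fold change divided by the square root of F. CPM uses TMM-scaled totals, and log2 CPM a prior count of 2. Biological coefficients of variation were 43.3% at 0.75 h (6 residual degrees of freedom), 41% at 16 h (6), 38.6% at 72 h (4) and 48% at 168 h (5). Replicates differed by more than counting noise (chi-square per degree of freedom 5.1 to 35.7). DESeq2 1.42.0, a replicate block, other scalings and filters, and leaving out libraries were alternatives. The fit was tested on simulated data. Motifs were searched in 300 bp windows. Gene models were GENCODE M21. Tables and figures used Python 3.11.15, numpy 2.4.6, pandas 2.3.3 and matplotlib 3.10.9.

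Same-numbered PBS and IL2 libraries at 0.75 h deviated together (correlations 0.16, 0.39 and 0.14), so the blocked value stands beside that comparison. Differently numbered libraries reached at most 0.07, -0.19 and 0.08, so numbers 1 and 3 were little above them. The titles give numbers and no pairing. Elsewhere at least 1 pair did not exceed 0.1, as for PBS and FP at 0.75 h (0.00, 0.40 and 0.27).

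The members and lists were chosen with earlier results of these data known. Peaks named with values are, for each gene, its promoter-labelled peak with the highest mean CPM, every peak past the threshold, and the peak of lowest p (mean log2 CPM of at least 1) in each comparison with PBS, plus the upstream Ptpn1 peak. A few genes that the rules or lists would name are not reported here. The other named peaks were chosen after their values were seen. Sequences come from the RefSeq GRCm38.p6 genome.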

Additional observations from a re-analysis of the deposited data

Results flagged for a closer look

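The upstream Ptpn1 peak had every FP library above every PBS library at 0.75, 16 and 72 h, and every FP library below every PBS library at 168 h, where the log2 difference was -1.13. The difference of the FP effect between 168 h and 16 h was tested (-2.85 ± 0.60, adjusted p = 0.0738 by edgeR). The differences of the 168 h effect from those at 0.75 h and 72 h were not tested.

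The Ptpn2 promoter peak had 36.1 CPM in FP library 2 at 168 h, below the other FP libraries of that time, which had 56.1 to 57.8 CPM. The PBS libraries of that time had 34.9, 44.9 and 59.4 CPM. FP library 2 is one of the 2 libraries that stood apart over all peaks. This was looked for in 18 peaks over the 4 libraries of the group, and chance marks about 1 in 20 such sets.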

How the results depend on the processing

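Counts of called members changed under these alternatives. For IL2 against PBS at 0.75 h, 1 became 4 with DESeq2, 4 with the replicate block, 3 with all 31 libraries in 1 fit, and 1 to 2 when single libraries were left out, with 2 without FP library 2 (the internal exon Ptpn1 peak added) or PBS library 2 (1 fall added). For FP against PBS at 0.75 h, 0 became 1 with DESeq2 and 1 with the replicate block. For FP against PBS at 16 h, 1 became 3 with DESeq2. For FP against IL2 at 16 h, 1 became 0 with library totals as scaling, 0 with the library total as covariate, and 0 to 1 when single libraries were left out. For the FP effect at 168 h against 16 h, 0 became 3 with DESeq2. Calls over all peaks moved as well: from 0.488% higher to 0.96% with DESeq2 and 0.937% with the block for IL2 at 0.75 h, from 0.00199% to 0.203% and 0.126% for FP at 0.75 h, from 0.114% to 0.413% with DESeq2 for FP at 16 h, and from 0.0201% lower to 0.167% with DESeq2 for 168 h against 16 h. With all 31 libraries in 1 fit, 0.445% of all peaks were called higher and 0.0153% lower for IL2 at 0.75 h, so the share called higher did not rise there. For FP against IL2 at 16 h, 0.141% of all peaks called higher became 0.0615% with library totals as scaling and 0.0308% with the covariate. The cause was not tested. The other counts kept their values under each alternative run.

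The replicate block changed no other count of calls: it gave 0 members for FP against IL2 at 0.75 h, for FP against PBS at 72 h and for FP against PBS at 168 h. No paired analysis was possible at 16 h because its columns carry no number of a sample title. The Ptpn2 intron peak at 168 h changed sign, from 0.07 to -0.11 with the library total as covariate, -0.09 with the replicate block and -0.05 to 0.21 when single libraries were left out.

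Depth limits small peaks: in single libraries the upstream Ptpn1 peak rested on 7 to 249 reads, the internal exon peak on 9 to 237 and the Ptpn2 intron peak on 8 to 294. With 3 or 4 libraries a group, a peak that missed the threshold is not shown to be equal between groups.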
